A study of Mus musculus with 16 samples.

Results

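Granulocyte-monocyte progenitors (GMP) were set against the mature Myeloid cells of mouse bone marrow by small non-coding RNA sequencing. The comparison holds the 4 libraries whose cell type labels name these populations, 2 of GMP and 2 of Myeloid, out of 16 libraries of 8 sorted populations. All populations came from wild-type mice, and no treatment of the mice is labelled. Cells were sorted by flow cytometry, and the labels list the antibodies (among them CD11b and Gr1 in the lineage cocktail, and c-Kit, CD34 and CD16/32) without the gate of each population. Mouse age, sex and strain are not labelled. Nor is it labelled whether a population's libraries are from separate mice, so p values rest on a library-to-library spread that may be only technical.

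The GMP is the progenitor committed to granulocytes and monocytes of the bone marrow, and their mature progeny serve innate immunity. Most counts came from small nucleolar RNAs (snoRNAs). C/D snoRNAs guide 2'-O-methylation and H/ACA snoRNAs guide pseudouridylation of ribosomal RNA (rRNA) and other RNAs, while a few snoRNAs (U3, U8, U13, U14 and U17) act in the processing or other modification of pre-rRNA. Most mouse snoRNAs are cut from introns of host genes, many of which encode ribosomal proteins or nucleolar proteins. MicroRNAs (miRNAs) are short RNAs that repress mRNAs through a seed at their 5' end, and several of them (miR-223, miR-142, miR-21) are known for high levels in mature myeloid cells.

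The libraries held 14164782 and 14520518 counts in GMP and 15590104 and 35775890 counts in Myeloid, over 1885 annotated intervals in the 16 files. The GMP libraries did not resemble each other most. By Spearman correlation over all intervals tested, the nearest library to GMP library 1 was CLP library 1 (0.975, against 0.967 with GMP library 2), and the nearest to GMP library 2 was CLP library 2. CLP is the common lymphoid progenitor. The Myeloid libraries were each other's nearest (0.983). The GMP libraries differed most in miRNAs, which were lower in GMP library 1 than in GMP library 2 for 172 of 201 tested miRNAs. Counts of miRNA changes, and list counts that moved, are therefore also given without single libraries.

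C/D snoRNAs took 90.9% and 88.1% of counts in the GMP libraries and 88.2% and 87.9% in the Myeloid libraries. H/ACA snoRNAs took 1.06% and 1.30% in GMP and 1.09% and 1.03% in Myeloid, and the 45S pre-rRNA interval 6.57% and 8.22% in GMP and 6.86% and 7.14% in Myeloid, so these groups overlapped. The miRNA share was 0.688% and 1.60% in GMP, against 3.06% and 3.18% in Myeloid, the highest of the 16 libraries. The other 12 libraries had 0.535% to 1.94%. Mitochondrial tRNAs had 0.0294% and 0.0318% of counts in GMP, against 0.0193% and 0.0178% in Myeloid. These shares carry no test, since 2 libraries against 2 cannot pass 0.05 in an exact permutation test.

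Of 749 intervals tested, 122 were higher in GMP (16.3%) and 116 were lower in GMP (15.5%), each against Myeloid. Levels are read counts scaled to 1e+06 per library (CPM), with library sizes corrected by TMM (the trimmed mean of M values), and fold changes are log2 of GMP over Myeloid with an approximate standard error (SE). "Rose" and "fell" are used of GMP relative to Myeloid, for intervals with an adjusted p under 0.05 by the quasi-likelihood test of edgeR after Benjamini-Hochberg adjustment. CPM is not divided by length, so levels are compared between populations and not between genes. In bulk RNA, fewer cells of a type and less RNA per cell cannot be told apart. Among intervals with a mean of at least 10 CPM whose libraries did not overlap, all of the 15 largest falls were miRNAs. The 15 largest rises held snoRNAs, U3 intervals, mitochondrial tRNAs, 2 snRNA intervals and Gm27773, which is annotated as a miRNA without a miRNA name.

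**Figure D1:**
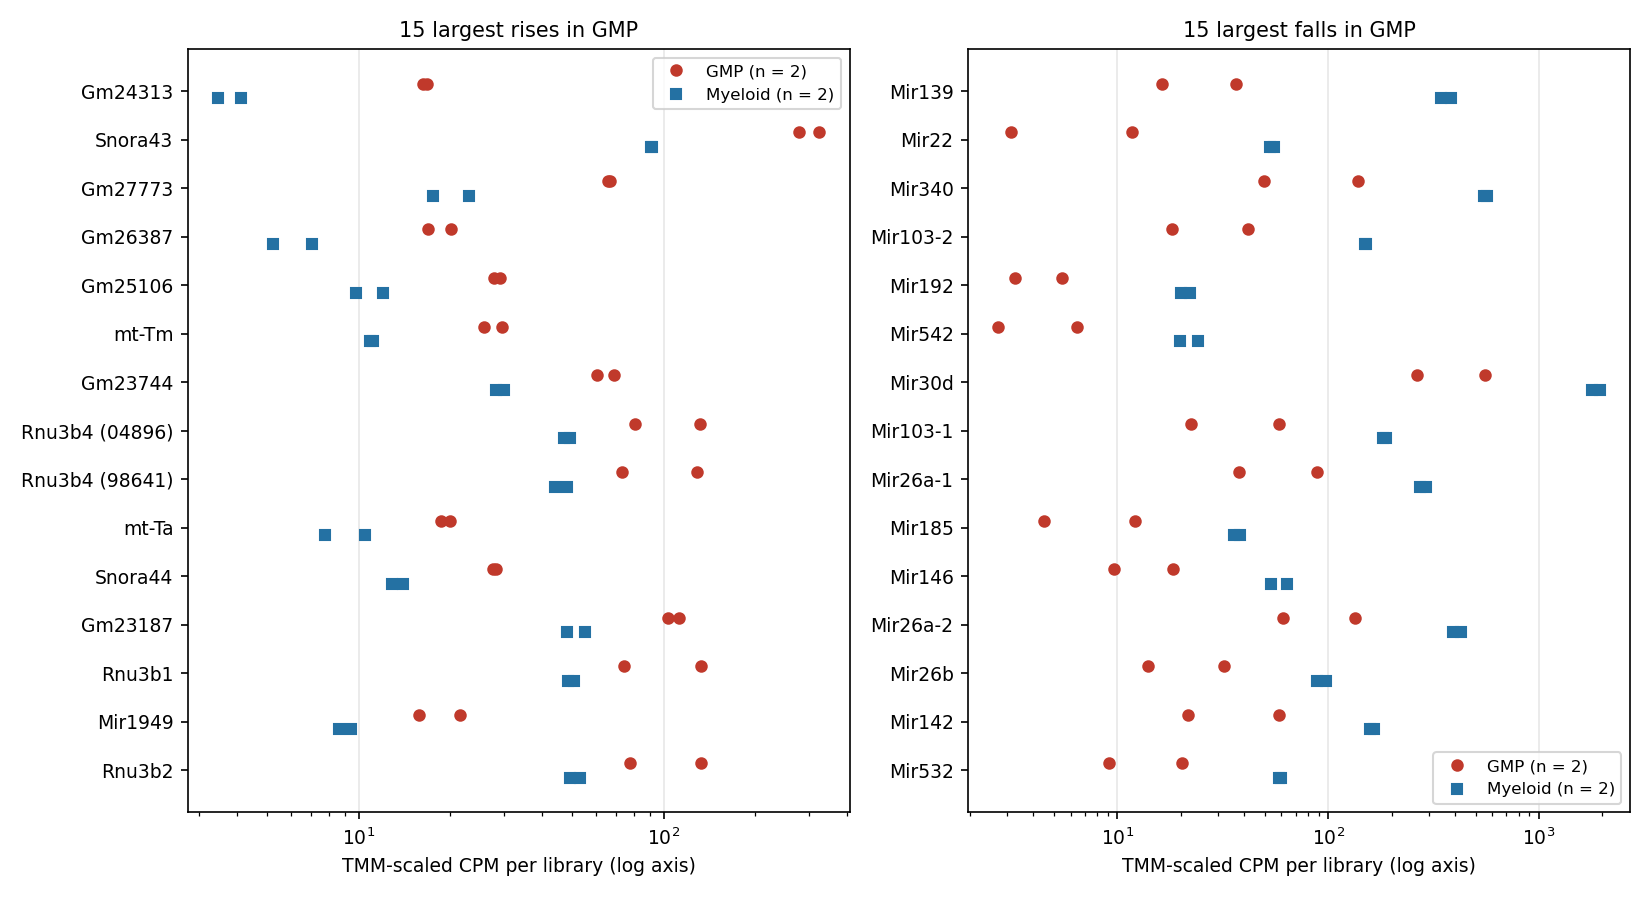
TMM-scaled CPM of each library (log axis) for the 15 largest rises (left) and the 15 largest falls (right) in GMP, ordered by fold change, with GMP as circles and Myeloid as squares. The Myeloid squares lie close together in each row, and the GMP circles of the falls stand well apart from each other, as in Mir139 at 16.2 and 36.4 CPM.

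**Figure D2:**
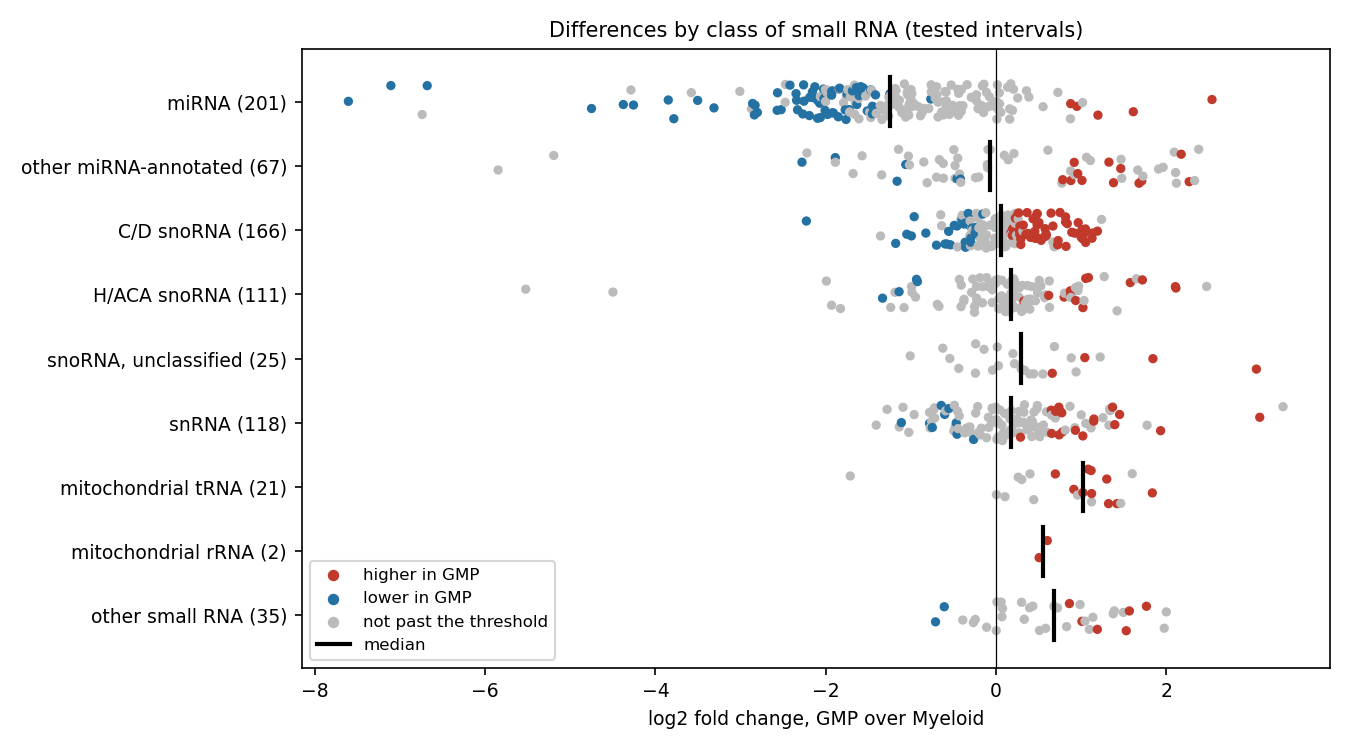
Log2 fold change of GMP over Myeloid for each tested interval, by class of small RNA (number tested in brackets), with the median as a bar. The miRNA median lies at -1.24 and the mitochondrial tRNA median at 1.02, against -0.01 over all 749 intervals.

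Mature miRNAs of the main falls, and miR-451a of an interval that rose, are shown from RefSeq (GRCm38.p6), 5' to 3', with the seed (bases 2 to 8) in capitals. Of the 201 tested miRNA intervals, 174 had a mature entry there. The counts are per annotated interval and do not separate the arms or the hairpin from the mature form.
miR-139-5p: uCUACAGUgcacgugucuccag
miR-22-3p: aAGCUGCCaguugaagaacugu
miR-340-5p: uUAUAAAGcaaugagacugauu
miR-103-3p: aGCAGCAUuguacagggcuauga
miR-26a-5p: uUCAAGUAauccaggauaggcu
miR-26b-5p: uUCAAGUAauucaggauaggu
miR-30c-5p: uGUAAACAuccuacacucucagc
miR-30e-5p: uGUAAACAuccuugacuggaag
miR-16-5p: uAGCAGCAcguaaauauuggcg
miR-142a-5p: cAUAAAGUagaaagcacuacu
miR-142a-3p: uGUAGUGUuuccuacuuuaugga
miR-223-3p: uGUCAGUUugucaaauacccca
miR-21a-5p: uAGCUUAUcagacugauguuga
miR-451a: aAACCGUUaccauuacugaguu
The mature miR-103-3p is the product of both Mir103-1 and Mir103-2, and miR-26a-5p of both Mir26a-1 and Mir26a-2. Among those shown, miR-26a and miR-26b share the seed UCAAGUA, and miR-30c and miR-30e share GUAAACA.

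Mir139, an intronic miRNA of Pde2a (chr7:101475376-101475443, GRCm38), showed the largest fall among intervals with a mean of at least 10 CPM. It had 16.2 and 36.4 CPM in GMP, against 343 and 382 CPM in Myeloid, and fell by 3.78 in log2 units (SE 0.58, adjusted p = 0.000782 by edgeR). Both GMP libraries lay far below both Myeloid libraries. Mir22 had 3.13 and 11.8 CPM in GMP, against 52.9 and 55.6 CPM in Myeloid, and fell by 2.86 in log2 units (SE 0.65, adjusted p = 0.00678 by edgeR). Mir340, within Rnf130, had 49.8 and 138 CPM in GMP, against 548 and 567 CPM in Myeloid, and fell by 2.57 in log2 units (SE 0.56). In both, GMP library 1 was the lowest of the 4 libraries.

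Mir103-2 and Mir103-1 lie in introns of the pantothenate kinase genes Pank2 and Pank3. Mir103-2 had 18.2 and 41.6 CPM in GMP, against 150.1 and 151 CPM in Myeloid, and Mir103-1 22.3 and 58.6 CPM in GMP, against 181 and 188 CPM in Myeloid, falling by 2.33 and 2.19 on the log2 scale. Their shared mature product means that reads of one copy could be counted at the other. The miR-26 genes lie within the phosphatase genes Ctdspl, Ctdsp2 and Ctdsp1. Mir26a-1 had 37.6 and 88.7 CPM in GMP, against 291 and 272 CPM in Myeloid, Mir26a-2 had 61.0 and 134 CPM in GMP, against 389 and 424 CPM in Myeloid, and Mir26b had 14.03 and 31.9 CPM in GMP, against 88.8 and 98.2 CPM in Myeloid. They fell by 2.15, 2.06 and 2.02 on the log2 scale. These 3 genes, which share a seed, had similar falls. Mir26a-1 and Mir26a-2 also share their mature product, so reads of one could be counted at the other.

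Mir30d had the highest CPM of the 15 largest falls, with 265 and 553 CPM in GMP, against 1792 and 1940 CPM in Myeloid, and fell by 2.19 in log2 units (SE 0.45, adjusted p = 0.00424 by edgeR). In its family of 6, Mir30e/Mir30f (-1.77) and Mir30c-2 (-1.63) fell too, while Mir30b (-1.53), Mir30c-1 (-1.41) and Mir30a (-0.52) did not pass. The share that fell was 50.0%, beside 32.3% of all tested miRNAs. In this family 1 of 6 fell without GMP library 1 or without Myeloid library 2. Mir185, Mir192 and Mir542 fell by 2.14, 2.27 and 2.26 on the log2 scale, at levels of at most 38.1 CPM. Mir146, which encodes miR-146a, a miRNA known to restrain innate immune signalling, had 9.67 and 18.4 CPM in GMP, against 53.8 and 64.0 CPM in Myeloid, and fell by 2.07 on the log2 scale. Mir532 fell by 2.00 on the log2 scale.

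Mir21a had the largest fall in CPM, with 2229 and 5195 CPM in GMP, against 10998 and 11600 CPM in Myeloid. It had the highest CPM of the miRNAs over the 4 libraries and fell by 1.61 in log2 units (SE 0.51, adjusted p = 0.0338 by edgeR). The fall did not pass without GMP library 1, Myeloid library 1 or Myeloid library 2. Mir223, the classical granulocyte miRNA, had 268 and 423 CPM in GMP, against 895 and 946 CPM in Myeloid, and fell by 1.41 in log2 units (SE 0.34, adjusted p = 0.01 by edgeR). It did not pass without GMP library 1 or without Myeloid library 2. Mir142, expressed across blood cells, had 21.6 and 58.6 CPM in GMP, against 165 and 158 CPM in Myeloid, and fell by 2.01 on the log2 scale. Mir142b lies opposite it on the other strand (-1.83), and whether the counting used strand is not given in the sources used here, so their reads may not be separate.

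A list of miRNAs of myeloid maturation was chosen with earlier results of these data known. It holds Mir139, Mir22, Mir340, Mir146 and Mir142, which are among the 15 largest falls, so its share of falls is no independent test. It had 20 tested members, of which 14 fell and none rose, with a median of -1.66, beside 15.5% lower of all intervals and 32.3% of the tested miRNAs. Without GMP library 1, 5 of them fell, without Myeloid library 1, 9, and without Myeloid library 2, 6. Mir147 was near its limit in GMP, with 0.272 and 0.507 CPM in GMP, against 7.37 and 7.86 CPM in Myeloid, and fell by 4.26 in log2 units (SE 0.55, adjusted p = 0.000239 by edgeR). Mir29c had 0.272 CPM in 1 GMP library and was listed at 0 in the other, against 3.35 and 4.08 CPM in Myeloid. Mir23a fell by 1.45 and Mir24-2, of the same cluster, by 1.51 on the log2 scale, while Mir27a, also of that cluster, was at -1.04 (adjusted p = 0.16 by edgeR). Mir29a and Mir503 fell by 1.44 and 1.72. Mir155, a miRNA of immune activation, had 3.00 and 5.33 CPM in GMP, against 4.58 and 4.43 CPM in Myeloid, a difference of -0.11 that did not pass. Mir146b (-0.99), Mir34a (-1.84), Mir29b-2 (-1.26) and Mir29b-1 (0.01) also did not pass. Among miRNAs alone 9 of the 20 list members were lower and 1 was higher, with a median of -0.49.

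Of 9 tested miRNAs known from stem and progenitor cells, none was higher in GMP and 3 were lower (33.3%, beside 15.5% of all intervals). Without GMP library 1, 1 was lower, and among miRNAs alone 3 were higher and 2 lower, with a median of 0.15. Mir10a, from the Hoxb cluster, had 153 and 325 CPM in GMP, against 884 and 924 CPM in Myeloid, and fell by 1.92 in log2 units (SE 0.49). Mir10b, from the Hoxd cluster, had no count in either GMP library, against 0.894 and 0.821 CPM in Myeloid. Mir100 fell too, with 0 and 0.127 CPM in GMP, against 0.894 and 0.547 CPM in Myeloid. Mir99a (0.16), Mir126a (-0.16), Mir125b-1 (-0.44), Mir125a (-2.87) and Mir196b (-1.13) did not pass.

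Among 201 tested miRNAs, 65 fell (32.3%) and 5 rose (2.49%), with a median of -1.24. The 5 that rose were Mir451a/Mir451b, Mir877, Mir5099, Mir3473f and Mir6516, named after their values were seen. Of these, Mir451a/Mir451b, an erythroid miRNA interval, had a mean of at least 10 CPM, with 66.1 and 116 CPM in GMP, against 45.1 and 48.8 CPM in Myeloid. Without GMP library 2 it was at 0.58 and did not pass, nor did it pass without either Myeloid library. The let-7 family had 0 of 11 members past the threshold, between -1.26 and -0.39, the Mir181 family 0 of 6, between -1.10 and -0.17, and the Mir17-92 group 2 of 15, both lower, between -1.47 and 0.21. In the Mir15/16 family 2 of 5 fell, Mir16-2 by 1.93 and Mir16-1 by 1.58 on the log2 scale, and none fell without GMP library 1 or without Myeloid library 2. The Mir17-92 falls passed in neither of these 2 fits nor without Myeloid library 1, and without GMP library 2 there were 4, with 2 in the let-7 family and 1 in the Mir181 family.

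The count of miRNA falls moved when single GMP or Myeloid libraries were left out. The miRNA median was -1.20 without Myeloid library 1 and -1.04 without Myeloid library 2. Without GMP library 1, 20 miRNAs fell and 3 rose with a median of -0.81. Without GMP library 2, 77 fell and 4 rose with a median of -1.90. Of the 15 largest falls, 7 passed without GMP library 1 (Mir139, Mir22, Mir340, Mir103-2, Mir192, Mir542 and Mir30d) and 15 without GMP library 2, and each stayed at or below -1.497. Mir139 fell by 3.35 and 4.40 on the log2 scale without GMP library 1 and 2. The part of the miRNA share of the libraries in these falls was not tested.

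Fitted and scaled among miRNAs alone, an alternative chosen after seeing the data, 39 of 203 miRNAs were lower in GMP (19.2%) and 51 higher (25.1%), with a median of 0.06. With GMP library 1 left out as well, 49 were lower and 25 higher with a median of -0.27, and with GMP library 2 left out, 53 and 21 with a median of -0.51, so which direction had more calls depended on using both. All 39 were among the 65, and all of the 15 largest falls were among the 39. The 15 were picked as the largest falls in these same counts, so their place among the 39 is no independent support. This scale shows how miRNAs moved relative to each other. Mir139 was lower by 2.59 (log2), Mir22 by 1.72, Mir340 by 1.42 and Mir30d by 0.99. Mir223 was at -0.15 and did not pass (adjusted p = 0.314 by edgeR, in a range of 7.88e-13 to 0.314 over its alternatives), but it was lower by 0.63 and 0.33 and passed with GMP library 1 and 2 left out. Relative to other miRNAs, 7 of 15 in the Mir17-92 group were higher in GMP. With GMP library 1 left out 6 were higher, and with GMP library 2 left out 3 were higher and 1 lower. One that was higher in all 3 fits was Mir17 (1.12, adjusted p = 7.56e-08 by edgeR), which is known for its part in proliferating cells. The let-7 family had 7 of 11 higher with both GMP libraries but 1 of 11 with either left out, in the second case beside 1 lower. Mir451a/Mir451b (2.19) was higher in all 3 fits. Mir17 had 77.5 and 169 CPM in GMP, against 126 and 133 CPM in Myeloid, so its level overlapped between the populations while most miRNAs were lower in GMP.

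Markers of other blood cells were read beside these results. For comparison, 16.3% of all intervals rose and 15.5% fell, and 2.49% and 32.3% of the tested miRNAs. All 3 myeloid markers (Mir223, Mir142, Mir142b) fell, with a summed level of 314 and 541 CPM in GMP and 1203 and 1259 CPM in Myeloid, but none passed without GMP library 1 or without Myeloid library 2. The 4 lymphoid markers (Mir150, Mir342, Mir181a-1, Mir181b-1) summed to 37.2 and 78.4 CPM in GMP and 127 and 137 CPM in Myeloid, and 1 fell. It was Mir150, a miRNA of mature lymphocytes, with 7.76 and 11.8 CPM in GMP, against 36.5 and 40.5 CPM in Myeloid, which did not pass without GMP library 1. The 3 erythroid marker intervals (Mir451a/Mir451b, Mir144, Mir486) summed to 67.8 and 121 CPM in GMP and 47.6 and 52.2 CPM in Myeloid, and 1 rose. Of 6 tested stem and progenitor markers 1 fell, with sums of 162 and 347 CPM in GMP and 899.6 and 943 CPM in Myeloid, most of it Mir10a, which did not pass without GMP library 1 or without Myeloid library 2. Among miRNAs alone, 2 myeloid markers were lower and 2 erythroid markers were higher. Of the lymphoid markers 1 was higher and 1 lower, and of the stem and progenitor markers 2 were higher and 1 lower. Whether cells of another type in either sort took part in these differences was not tested.

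The snoRNAs below are described with their values in the paragraphs that follow. Sequences are from GENCODE M21 (GRCm38), 5' to 3'. Capitals mark, in C/D snoRNAs, the C box TGATGA within the first 24 bases and the D box CTGA within the last 20 bases, and, in H/ACA snoRNAs, ACA within the last 7 bases, each searched on the RNA strand. Among the tested C/D snoRNAs 59.6% held TGATGA and 98.8% held CTGA in those windows, and 98.2% of tested H/ACA snoRNAs held ACA. Such boxes also set the class of snoRNAs whose name gives none, so these shares are in part a product of the classing.
Snora43: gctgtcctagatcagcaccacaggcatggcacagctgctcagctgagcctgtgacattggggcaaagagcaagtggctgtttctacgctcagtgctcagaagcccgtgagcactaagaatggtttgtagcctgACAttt
Gm24313: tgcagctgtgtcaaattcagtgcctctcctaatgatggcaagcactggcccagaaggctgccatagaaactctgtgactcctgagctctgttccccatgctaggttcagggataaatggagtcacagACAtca
Gm25878: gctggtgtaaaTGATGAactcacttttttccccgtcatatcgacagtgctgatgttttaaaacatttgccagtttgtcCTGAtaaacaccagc
Snord14a: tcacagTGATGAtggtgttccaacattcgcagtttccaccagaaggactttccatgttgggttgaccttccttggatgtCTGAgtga
Snord118: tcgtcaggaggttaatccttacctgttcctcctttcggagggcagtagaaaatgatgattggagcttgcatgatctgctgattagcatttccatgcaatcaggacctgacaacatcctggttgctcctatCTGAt
Gm23187: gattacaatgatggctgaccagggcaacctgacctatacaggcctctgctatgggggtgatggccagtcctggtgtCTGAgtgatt
Snord57: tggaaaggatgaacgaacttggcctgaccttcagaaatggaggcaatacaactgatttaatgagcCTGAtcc
Gm24916: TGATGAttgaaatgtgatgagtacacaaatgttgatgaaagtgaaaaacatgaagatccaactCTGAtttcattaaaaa
Snord69: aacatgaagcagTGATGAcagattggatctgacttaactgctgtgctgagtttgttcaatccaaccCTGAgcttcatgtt
Gm24148: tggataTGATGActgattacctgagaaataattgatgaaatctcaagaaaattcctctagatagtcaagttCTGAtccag
Snord71: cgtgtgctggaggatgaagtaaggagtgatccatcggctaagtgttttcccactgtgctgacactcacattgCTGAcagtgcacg
Snord123: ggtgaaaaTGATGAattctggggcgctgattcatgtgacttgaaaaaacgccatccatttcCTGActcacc
Gm23187, Snord57, Snord118 and Snord71 have no TGATGA in that window and are shown with the D box only. Gm24916 holds a further TGATGA in that window, left in small letters. Which of them is its C box was not tested. Gm24313 lies in an intron of Tbrg4, Gm25878 of Zfas1, Snord14a of Rps13, Gm23187 and Snord57 of Nop56, Gm24916 and Snord69 of Gnl3, Gm24148 of Ncl, Snord71 of Ap1g1 and Snord123 of Snhg18, each on the strand of its host.

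Snora43 (chr2:26637847-26637985, minus strand) is an H/ACA snoRNA outside any annotated host. It had 278 and 325 CPM in GMP, against 91.6 and 91.2 CPM in Myeloid, and rose by 1.72 ± 0.14 (log2 ± SE, adjusted p = 1.42e-05 by edgeR). The libraries of each population lay close together. A second interval named Snora43 overlaps it, so its reads may be split. Gm24313 (chr11:6619808-6619940) had 16.2 and 16.7 CPM in GMP, against 3.46 and 4.13 CPM in Myeloid, and rose by 2.11 ± 0.22. Snora5c, of the same host Tbrg4, had 3.40 and 2.28 CPM in GMP, against 4.91 and 5.82 CPM in Myeloid, and fell by 0.92 on the log2 scale, so both directions occurred in 1 gene. Gm26387, within Rpl5, rose by 1.58 and Snora44, within Snhg12, by 1.06. In all, 13 of 111 tested H/ACA snoRNAs rose (11.7%) and 4 fell (3.60%), with a median of 0.18, beside 16.3% and 15.5% of all intervals. With either Myeloid library left out 7 rose and 1 fell, and without GMP library 2, 9 rose and 1 fell.

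Of 166 tested C/D snoRNAs 52 rose (31.3%) and 30 fell (18.1%), beside 16.3% and 15.5% of all intervals, with a median of 0.06. This split depended on the scaling. It was 45 and 44 with library totals, 41 and 47 with TMM factors from snoRNAs and scaRNAs, and 42 and 65 with miRNAs left out, so the class had no direction that held under each scaling. It also moved with single libraries, being 34 and 28 without GMP library 1, 62 and 14 without GMP library 2, and 32 and 11 without Myeloid library 1. TMM on snoRNAs and scaRNAs moved the median of all intervals by -0.11. Single C/D snoRNAs moved more than these shifts. Gm25878 (chr2:167063473-167063565) had 19668 and 18922 CPM in GMP, against 10787 and 11083 CPM in Myeloid, and rose by 0.82 ± 0.046 (adjusted p = 7.29e-07 by edgeR). Snord71 (chr8:109839295-109839379) had 1201 and 1213 CPM in GMP, against 2298 and 2396 CPM in Myeloid, and fell by 0.96 in log2 units (SE 0.05, adjusted p = 6.31e-07 by edgeR). Both passed in all of their 16 alternatives.

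The interval with the highest CPM, Gm26224 of Gas5, had 171559 and 151549 CPM in GMP, against 138812 and 139094 CPM in Myeloid, a rise of 0.22 ± 0.054 that passed in 7 of 16 alternatives and was 0.09 without GMP library 1. Snord49a, Snord2 and Snord68, the snoRNAs with the next highest CPM, were at 0.01, 0.01 and 0.07 and did not pass. The 45S pre-rRNA interval had 63366 and 75702 CPM in GMP, against 59713 and 63486 CPM in Myeloid, and did not pass (0.17, adjusted p = 0.226 by edgeR).

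Among the snoRNAs of rRNA processing 14 of 20 tested rose (70.0%), with 1 fall and a median of 0.85, against 16.3% of all tested intervals higher and a median of -0.01. U3, known in yeast and vertebrates for the early cleavages toward 18S rRNA, is counted here in 10 Rnu3a and Rnu3b intervals and in Gm23927. The 10 lie at 5 positions as overlapping pairs. At one of them, Rnu3a (ENSMUSG00000065870) had 72.2 and 88.9 CPM in GMP, against 46.1 and 45.2 CPM in Myeloid, and rose by 0.82 ± 0.14 (adjusted p = 0.00144 by edgeR). The Rnu3b intervals within Tex14 rose by 0.97 to 1.14, and Rnu3b4 (ENSMUSG00000104896) had 80.8 and 131 CPM in GMP, against 49.5 and 47.0 CPM in Myeloid. The GMP libraries differed in these, with library 2 above library 1. The 8 Rnu3b intervals have 14 similar copies each, so they are not 8 separate measurements.

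U17 (Snora73a), U14 (Snord14a) and U13 (Snord13) also rose. U17 acts in 18S rRNA processing, and Snora73a had 486 and 478 CPM in GMP, against 278 and 247 CPM in Myeloid, and rose by 0.88 ± 0.16. Snord14a had 26.6 and 25.6 CPM in GMP, against 14.3 and 15.1 CPM in Myeloid, and rose by 0.82 ± 0.16. The U14 copies of Hspa8 moved less, with Snord14e at 0.46, which passed, and Snord14d and Snord14c at 0.23 and 0.18, which did not. Snord13, which is linked to acetylation of 18S rRNA in human cells, had 152 and 141.7 CPM in GMP, against 91.8 and 95.4 CPM in Myeloid, and rose by 0.65 ± 0.12. Snora73b (0.42), Snord22 (0.10) and the U3-annotated Gm23927 (0.69, at most 2.03 CPM) did not pass.

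U8 (Snord118, chr11:69073427-69073561), which is needed for 28S and 5.8S rRNA processing in Xenopus, was the 1 member that fell. It had 66.2 and 67.9 CPM in GMP, against 131 and 136 CPM in Myeloid, and fell by 0.99 in log2 units (SE 0.086, adjusted p = 1.95e-05 by edgeR). Both GMP libraries lay at about the same level, below both Myeloid libraries, and it passed in all 15 of its alternatives. An annotated similar copy exists. With similar copies and overlaps left out 4 of the list remained, of which 3 rose. With the 4 libraries fitted alone 6 rose and 1 fell.

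**Figure D3:**
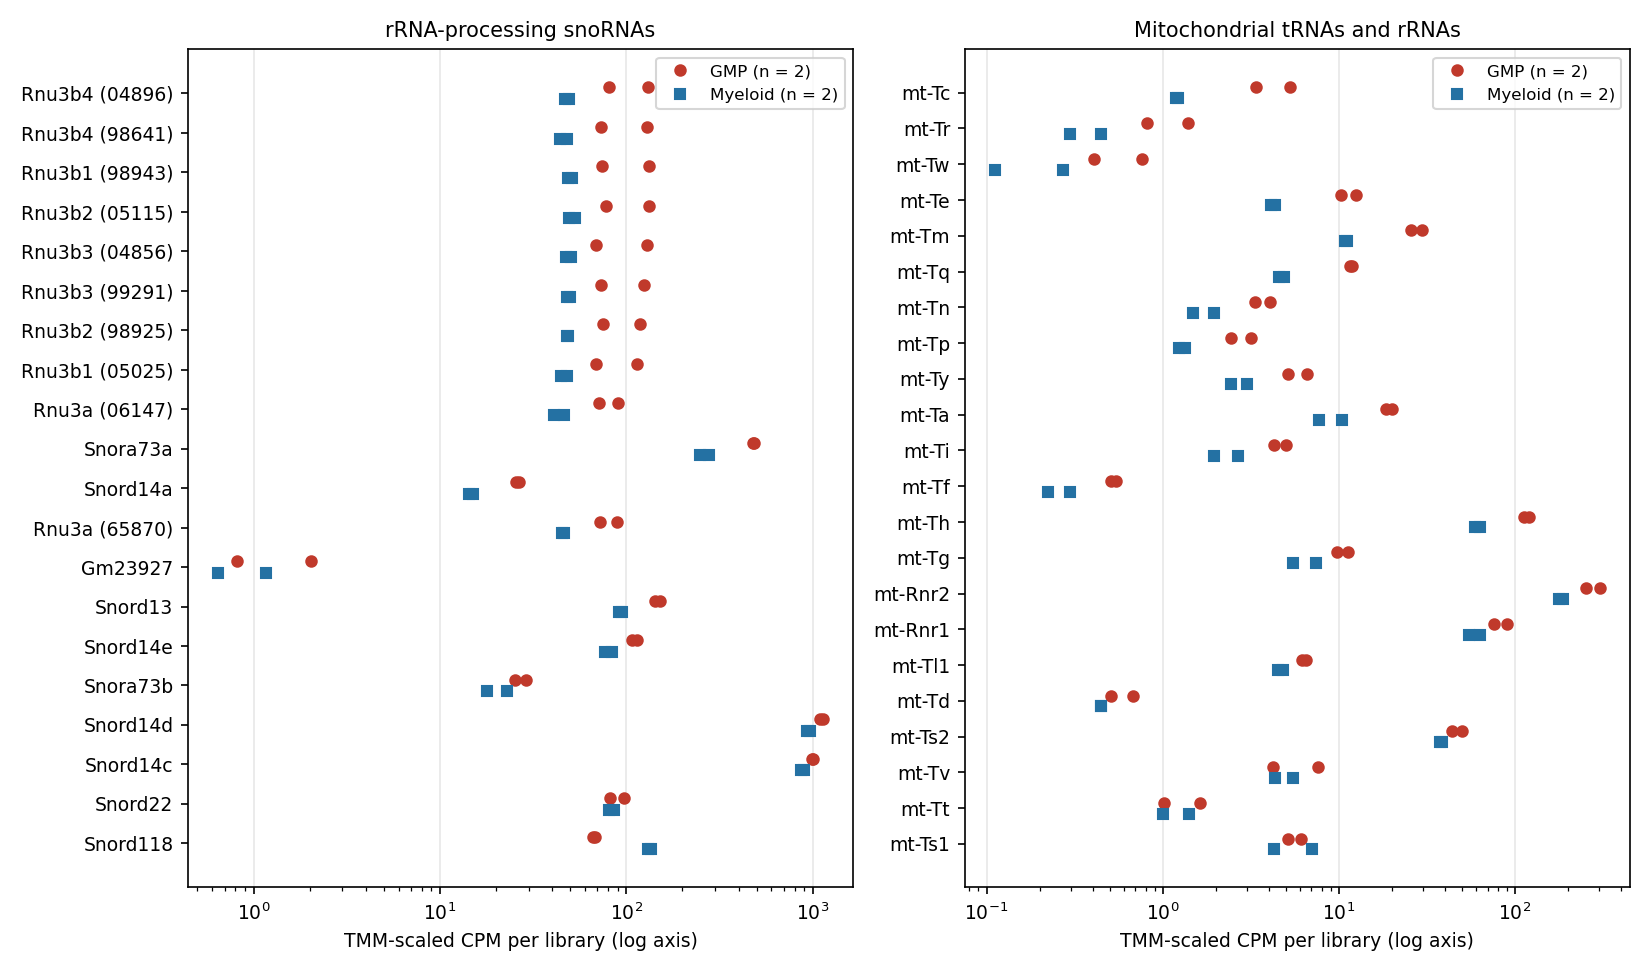
TMM-scaled CPM of each library (log axis) for the 20 tested rRNA-processing snoRNAs (left) and for 22 tested mitochondrial tRNAs and rRNAs with counts in all 4 libraries (right), GMP as circles and Myeloid as squares; numbers in brackets are the last digits of the gene identifier. Snord118 is the only row at left with both GMP points below both Myeloid points, and most mitochondrial rows have both GMP points to the right.

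Mitochondrial tRNAs, which serve translation of the proteins encoded in mitochondrial DNA, were higher in GMP in 10 of 21 tested (47.6%, beside 16.3% of all intervals), and none was lower, with a median of 1.02. The tRNA for histidine, mt-Th, had 113 and 119.8 CPM in GMP, against 63.6 and 59.8 CPM in Myeloid, and rose by 0.92 ± 0.10 (adjusted p = 8.18e-05 by edgeR). The methionine tRNA mt-Tm had 25.7 and 29.6 CPM in GMP, against 11.2 and 10.9 CPM in Myeloid, and rose by 1.32 ± 0.16. The glutamine tRNA mt-Tq had 11.8 and 11.5 CPM in GMP, against 4.91 and 4.58 CPM in Myeloid, and rose by 1.30 ± 0.15. In each, both GMP libraries lay above both Myeloid libraries. Rises also passed for mt-Tc (1.84), mt-Te (1.42), mt-Tn (1.12), mt-Ty (1.12), mt-Ta (1.09), mt-Ti (1.02) and mt-Tg (0.70).

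The mitochondrial tRNA with the next highest CPM after mt-Th, the serine tRNA mt-Ts2, had 50.4 and 43.8 CPM in GMP, against 38.6 and 37.6 CPM in Myeloid, and did not pass (0.30, adjusted p = 0.0918 by edgeR). The other serine tRNA, mt-Ts1, was at 0.01, with 5.18 and 6.09 CPM in GMP, against 7.04 and 4.28 CPM in Myeloid. Both mitochondrial rRNAs rose, and 1 of the 2 did without GMP library 1, without GMP library 2 or without Myeloid library 2. The large-subunit mt-Rnr2 had 302 and 255 CPM in GMP, against 188 and 178 CPM in Myeloid, and rose by 0.60 ± 0.11, and the small-subunit mt-Rnr1 had 76.5 and 90.8 CPM in GMP, against 63.1 and 54.6 CPM in Myeloid, and rose by 0.51 ± 0.13, which passed in 11 of 16 alternatives. With each library left out in turn, 7 to 11 mitochondrial tRNAs rose and none fell.

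Among 8 housekeeping small RNAs 1 rose (12.5%) and 3 fell (37.5%), beside 16.3% and 15.5% of all intervals. The 7SK RNA (Rn7sk), which holds the elongation factor P-TEFb in an inactive complex, had 171 and 144 CPM in GMP, against 87.7 and 84.8 CPM in Myeloid, and rose by 0.86 ± 0.10 (adjusted p = 0.000106 by edgeR). Rny1, a Y RNA bound by the Ro60 protein, had 37.5 and 37.3 CPM in GMP, against 55.6 and 66.5 CPM in Myeloid, and fell by 0.71 in log2 units (SE 0.17). Rn7s1, an RNA of the signal recognition particle, had 27.0 and 25.1 CPM in GMP, against 38.5 and 40.8 CPM in Myeloid, and fell by 0.61 on the log2 scale. Rnu7, the U7 RNA of histone mRNA 3' end formation, had 329 and 312 CPM in GMP, against 374 and 395 CPM in Myeloid, and fell by 0.26 on the log2 scale. The falls of Rn7s1 and Rnu7 did not pass when any 1 of the 4 libraries was left out. Rny3 (0.00), Rn7s2 (-0.24), Vaultrc5 (-0.26) and Terc (0.30, under 1 CPM) did not pass.

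Spliceosomal snRNA intervals went both ways, with 18 of 117 tested higher (15.4%) and 8 lower (6.84%) and a median of 0.18, beside 16.3% and 15.5% of all intervals. Without Myeloid library 1 there were 9 rises and 5 falls, and with similar copies and overlaps left out 3 of 11 rose and none fell. The falls had 32 to 37 similar copies each, among them the U1 genes Rnu1b2 and Rnu1a1, and Gm23804 with 78.4 and 67.7 CPM in GMP, against 141.6 and 174 CPM in Myeloid and a fall of 1.11 on the log2 scale, and Gm22068, which fell by 0.64. Among rises with no similar copy and a mean of at least 10 CPM were Gm25106, within Ikzf3, and Gm23744. Gm25106 had 29.1 and 27.7 CPM in GMP, against 9.83 and 12.1 CPM in Myeloid, and rose by 1.37 ± 0.15. Gm23744 had 68.8 and 60.6 CPM in GMP, against 29.9 and 28.3 CPM in Myeloid, and rose by 1.15 ± 0.16. Both carry a run of the U2 RNA Rnu2-10, of 61 of 134 bases in Gm25106 and 77 of 149 bases in Gm23744, so reads of U2 could have been placed there. The minor spliceosome RNAs Rnu12 (0.00) and Rnu11 (0.43) did not pass, nor did the Cajal body RNAs Scarna9 (-0.44) and Scarna10 (-0.37).

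Host genes could be compared for 52 genes with at least 2 tested snoRNAs, of which 9 held both a rise and a fall. Gas5, a non-coding host, had 5 rises and 2 falls among 10 snoRNAs, between -0.36 (Gm22489) and 0.48 (Snord80, ENSMUSG00000065735). Gm22489 had 1798 and 1528 CPM in GMP, against 2149 and 2108 CPM in Myeloid, while this Snord80 interval had 11220 and 9609 CPM in GMP, against 7602 and 7295 CPM in Myeloid. Gm22489 did not pass with RLE size factors or with DESeq2, while this Snord80 interval passed with both. Over the alternatives Gm22489 ranged from -0.52 to -0.16. Snhg1 had 2 rises and 3 falls among 8, from Gm24452 (-0.40) to Gm24453 (0.58). Gm24452 had 13050 and 12574 CPM in GMP, against 16708 and 17056 CPM in Myeloid, and Gm24453 had 699 and 696 CPM in GMP, against 469 and 467 CPM in Myeloid. Their SEs were 0.048 and 0.077. A second Snord80 interval overlaps the first and was at -0.24.

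Nop56 and Gnl3 encode nucleolar proteins. In Nop56, Gm23187 had 112 and 103.3 CPM in GMP, against 48.3 and 55.4 CPM in Myeloid, and rose by 1.06 ± 0.10, while Snord57 had 4487 and 4554 CPM in GMP, against 5206 and 5357 CPM in Myeloid, and fell by 0.22 in log2 units (SE 0.042). In Gnl3, Gm24916 had 1687 and 1557 CPM in GMP, against 1275 and 1319 CPM in Myeloid, and rose by 0.32 ± 0.085, while Snord69 had 387 and 371 CPM in GMP, against 644 and 695 CPM in Myeloid, and fell by 0.82 in log2 units (SE 0.074). Neither Snord57 nor Gm24916 passed with RLE size factors or with DESeq2. Over the alternatives Snord57 ranged from -0.38 to -0.14 and Gm24916 from 0.17 to 0.46. The other hosts with both directions were Snhg12, Ncl, Tbrg4, Hspa9 and 2410002F23Rik. In Ncl, the nucleolin gene, Gm24148 (chr1:86352008-86352087) had 86.9 and 95.5 CPM in GMP, against 212 and 200.2 CPM in Myeloid, and fell by 1.18 in log2 units (SE 0.089, adjusted p = 1.1e-05 by edgeR). It lies inside the interval mmu-mir-3535, with which it may share reads and which fell by 1.16. The number of hosts with both directions was 4 with RLE size factors, 11 with library totals and 2 without Myeloid library 1.

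In each of the remaining hosts calls went 1 way or none passed. In Zfas1, Gm25878 and Gm23201 (0.49) rose, and Snord12 (0.05) did not pass. In Nop58, 2 of 4 rose and none fell, up to Gm26287 (0.93). In Rpl13a none of 4 passed (-0.18 to 0.09). In Rpl4, 4 of 5 rose, up to 0.59 (Gm22571). Over all ribosomal protein hosts 13 of 56 rose (23.2%) and none fell, beside 16.3% and 15.5% of all intervals, with a median of 0.10. But with library totals it was 11 and 7, with TMM on snoRNAs and scaRNAs 10 and 8, and with miRNAs left out 10 and 16. No direction held under each scaling. Without GMP library 1 it was 7 and 4, and without Myeloid library 1, 6 and 0.

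**Figure D4:**
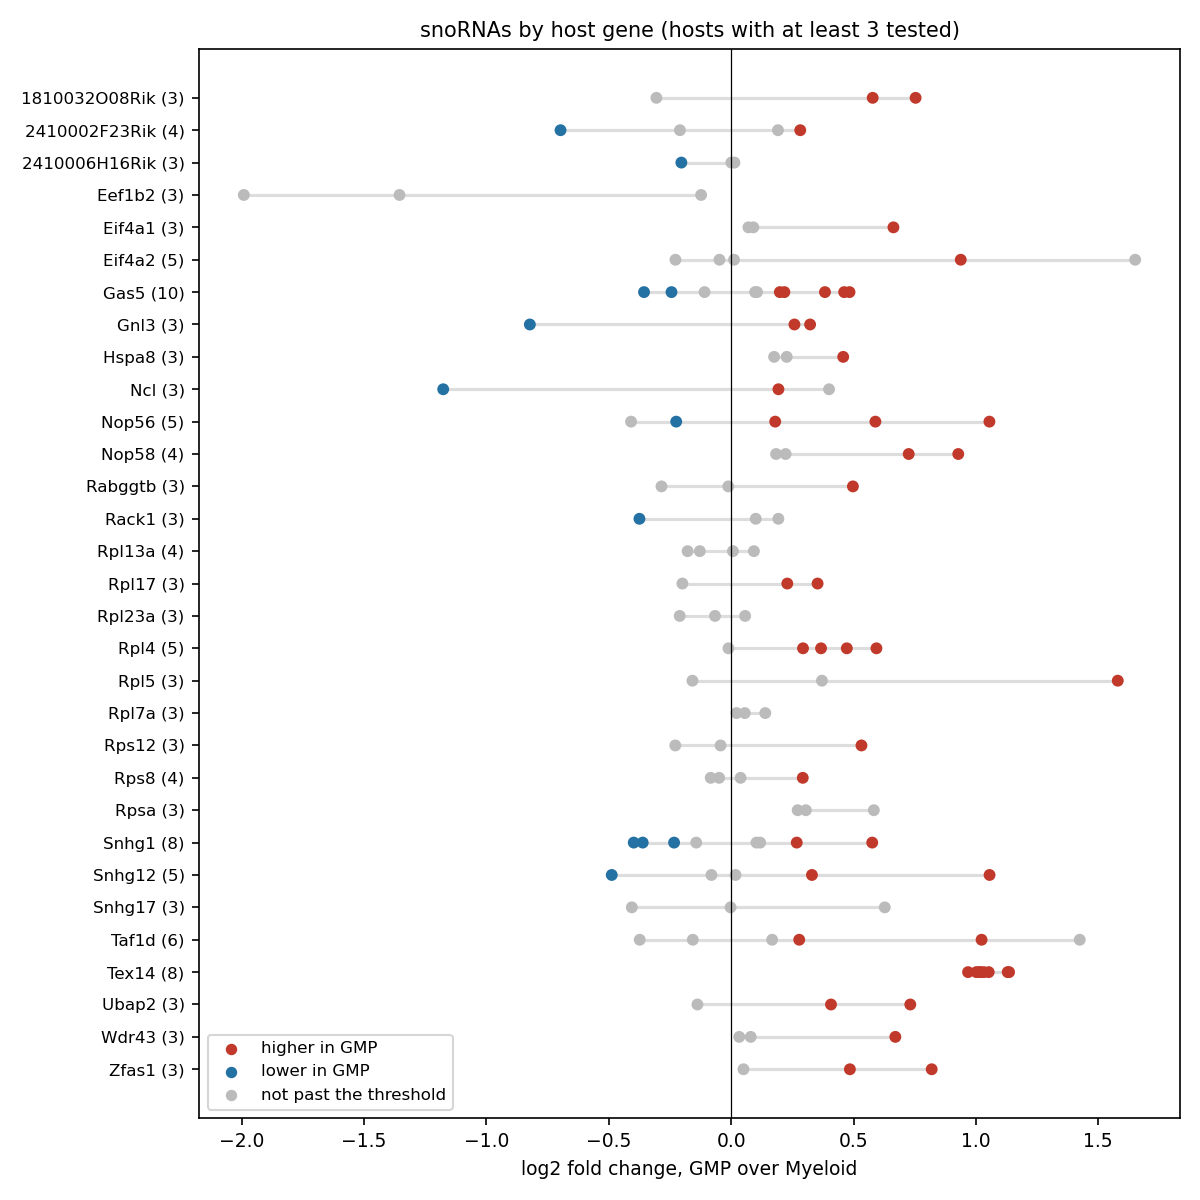
Log2 fold change of GMP over Myeloid of each tested snoRNA, 1 row for each of 31 host genes with at least 3 tested snoRNAs (number in brackets); colours mark members higher or lower in GMP past the threshold. Rows with both colours are hosts whose snoRNAs went in both directions, such as Gas5 and Snhg1.

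The same step in the erythroid branch, megakaryocyte-erythroid progenitors (MEP) against Erythroid cells, served to ask which changes differed between branches. The test was of the difference of the 2 log2 fold changes (GMP over Myeloid minus MEP over Erythroid) in the same 16-library fit. Of 749 intervals 69 passed (9.21%), 42 above 0 (5.61%) and 27 below 0 (3.60%). Snord123, within Snhg18, had 1.91 and 2.16 CPM in GMP, against 10.7 and 8.40 CPM in Myeloid, and 10.6 and 9.90 CPM in MEP, against 5.91 and 5.21 CPM in Erythroid. It fell by 2.23 (log2) in the first branch and was at 0.88 in the second, a difference of -3.11 (SE 0.25, adjusted p = 7.28e-05 by edgeR). Both GMP libraries lay below all 6 others.

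Snord118 differed by -1.15 (adjusted p = 0.00024 by edgeR), with 109 and 104 CPM in MEP, against 96.1 and 95.9 CPM in Erythroid. Gm24148 differed by -1.10, and the overlapping mmu-mir-3535 by -1.23. Gm47281, which has 121 similar copies, differed by -1.52. Above 0, Gm25878 differed by 0.70 (adjusted p = 0.000123 by edgeR), with 16215 and 17424 CPM in MEP, against 15384 and 15659 CPM in Erythroid. Rn7sk, Gm23187, Gm23744 and Gm25106 differed by 1.10, 1.08, 1.85 and 2.09. In each of these 10, the smallest p values in each direction, the difference passed under every alternative in which it was tested.

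Snora43 was higher in the progenitor in both branches, with 600.3 and 579.6 CPM in MEP, against 80.1 and 59.9 CPM in Erythroid. Its change was smaller in the GMP branch by 1.35 (log2, adjusted p = 0.00117 by edgeR). Snord71 was lower in the progenitor in both, at -0.96 and, for MEP over Erythroid, -0.70, the latter not tested by itself. It was further down in the GMP branch by 0.26 on the log2 scale (adjusted p = 0.0424 by edgeR), which passed in 6 of 15 alternatives. Among the miRNAs 3 differences passed, for Mir10b (-6.63, a fitted value that depends on the prior count, since GMP had no count), Mir200a (-3.68) and Mir877 (1.503). The Mir10b difference passed in 6 of 13 alternatives, and not with RLE size factors or among miRNAs alone. For Mir139 the difference was -1.91 (adjusted p = 0.143 by edgeR). The MEP and Erythroid libraries also split by miRNA level, and the SE of the Mir139 difference was 0.75.

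**Figure D5:**
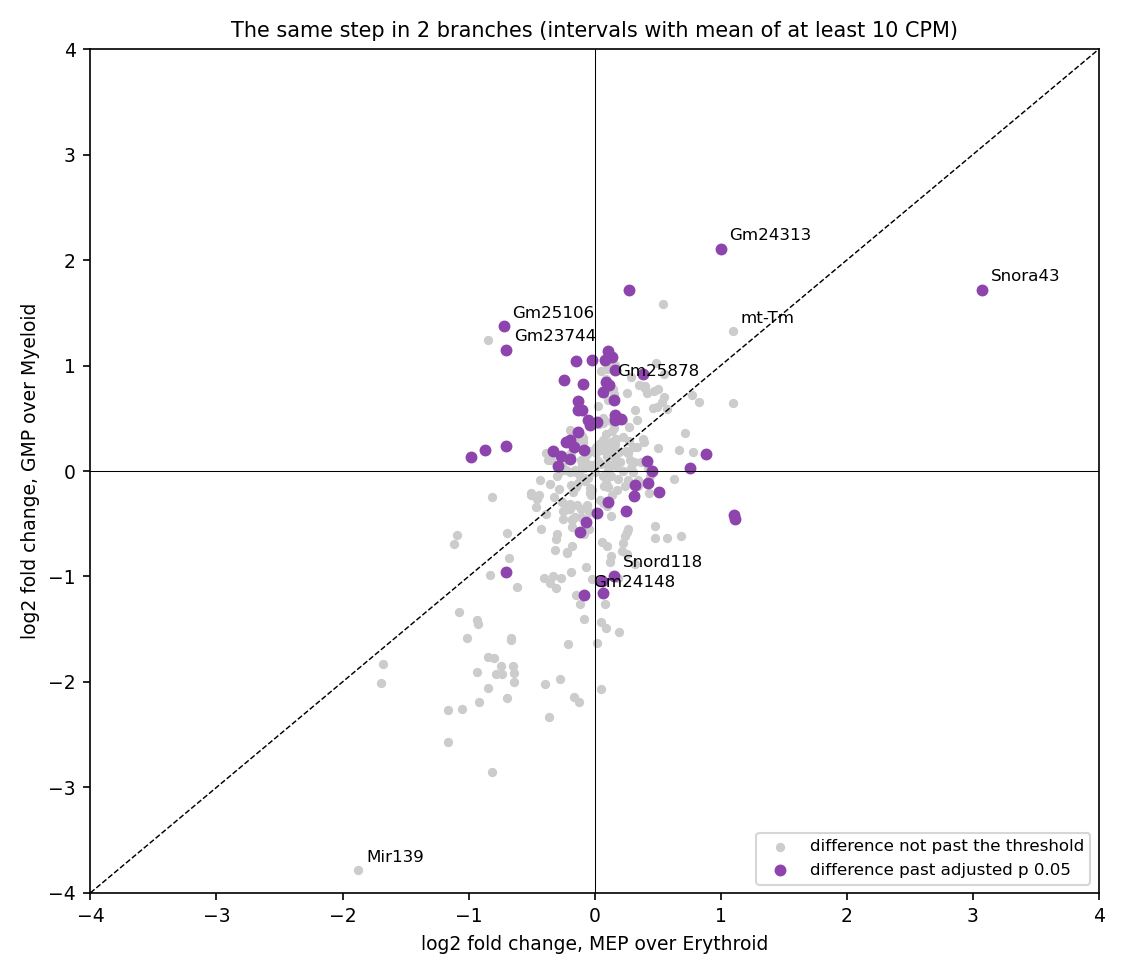
Log2 fold change of GMP over Myeloid (y axis) against MEP over Erythroid (x axis) for 330 tested intervals with a mean of at least 10 CPM over the GMP and Myeloid libraries; the dashed line marks equal change and large purple points are the 59 whose difference passed. Snord118 and Gm24148 lie near 0 on the x axis and near -1 on the y axis, and Snora43 lies far to the right of the line.

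The snoRNAs of the imprinted Dlk1-Gtl2 locus, which the title of the series names, had very few counts in both populations. Of 8 listed in the 16 libraries 5 had counts here, in sum 6 and 6 counts in GMP and 6 and 14 counts in Myeloid. The summed level was 0.424 CPM (95% exact interval on read pairs 0.0874 to 1.24) and 0.413 CPM (0.0852 to 1.21) in GMP, against 0.385 CPM (0.0794 to 1.12) and 0.391 CPM (0.157 to 0.806) in Myeloid, each over library totals. These intervals cover counting error only, and all 5 fell short of the filter on low counts, so a difference was not detectable at this depth. The miRNAs of the locus had 2 and 0 counts in GMP and 4 and 22 counts in Myeloid.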

How the data were processed

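Small RNA was sequenced from sorted bone marrow populations, with library inserts selected on a gel, per the labels' protocols. Reads were trimmed and aligned with Bowtie2 2.3.4.1 to GRCm38, per the submitters' processing notes. The authors deposited whole-number counts per annotated interval in each library, with no normalization. The counting program, its annotation and its use of strand are not given in the sources used here. In the 4 libraries 90.1% to 91.9% of the listed counts were even. An interval missing from a library was taken as 0.

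Of 1885 intervals 1884 matched a gene in GENCODE M21 by exact coordinates, and the other is the 45S pre-rRNA. A similar copy is another annotated interval with at least 90% identity over at least 0.8 of the length (blastn 2.17.0), which 301 tested intervals have, and 55 tested intervals overlap another. Counts of all 16 libraries were fitted with edgeR 4.0.16 (R 4.3.3, quasi-likelihood test, 1 mean per population, 8 residual degrees of freedom) after filtering with a minimum count of 10 and TMM scaling, with Benjamini-Hochberg adjustment and a threshold of 0.05. The SE is the log2 fold change over the square root of F. Scripts were tested on simulated data. Alternatives included DESeq2 1.42.0, and intervals for summed counts are exact at 95%, on counts halved to read pairs.

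The members, lists and tests were chosen with earlier results of these data known. Named are, past the threshold, at a mean of at least 10 CPM and with no overlap of libraries, the 15 largest rises and 15 largest falls, and the 5 rises and 5 falls with the largest change in CPM. Also named are the 10 most abundant intervals, up to 4 members per list by smallest p, all members of short lists, the ends of each host gene, and the 5 smallest p in each direction of the difference between branches. Other list members were named after their values were seen. The result on 1 host gene is not reported here.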

Additional observations from a re-analysis of the deposited data

Results flagged for a closer look

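The results below were singled out because the change of GMP against Myeloid differed from that of MEP against Erythroid, by edgeR's quasi-likelihood test of the difference itself with Benjamini-Hochberg adjustment over 749 intervals (log2, GMP over Myeloid minus MEP over Erythroid). They are those of the named intervals that passed, 42 in number. Of these, 18 passed with RLE size factors, 19 with no low-count filter, 15 without Myeloid library 1, and 6 of the 28 still tested when similar copies and overlaps were left out.

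Below 0 were Mir10b (-6.63, a fitted value that depends on the prior count, since GMP had no count), Snord123 (-3.11), Gm47281 (-1.52), Snora43 (-1.35), mmu-mir-3535 (-1.23), Snord118 (-1.15), Snord85 (-1.11), Gm24148 (-1.10), Snord49b (-0.72), Gm25296 (-0.62), Snord99 (-0.42), Gm24452 (-0.42), Snord34 (-0.32) and Snord71 (-0.26).

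Smaller differences above 0, among snoRNAs, were Gm24494 (0.29), Gm25091 (0.32), Snord12 (0.34), Gm23130 (0.37), Gm23301 (0.39), Gm22879 (0.41), Gm26330 (0.49), Gm22455 (0.50), Snord53 (0.52), Snord95 (0.52), Snord80 (0.54), Gm24453 (0.67), Snord1c (0.69), Gm25878 (0.70) and Gm25835 (0.79). Larger ones were Snord14a (0.91), Snora44 (0.97), Rnu3b4 (1.03), Gm23187 (1.08), Gm24313 (1.11) and Mir1949 (1.19). Gm27773 (1.44), annotated as a miRNA without a miRNA name, was above 0 too. The mitochondrial tRNAs mt-Th (0.53), mt-Tq (0.85) and mt-Ta (0.95), the 7SK RNA Rn7sk (1.10), and the snRNA intervals Gm23744 (1.85) and Gm25106 (2.09) were also above 0.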

How the results depend on the processing

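The counts of intervals higher in GMP, lower in GMP and differing between branches were 122, 116 and 69. With 1 library left out they ranged from 76 to 121, 49 to 102 and 22 to 65. The lower count was 62 without GMP library 1 and 49 without Myeloid library 2, and without Myeloid library 1 the 3 counts were 76, 61 and 22. Counts that moved over 1.5 times were 28 differences with RLE size factors, 80 higher with no low-count filter, 76 lower at a mean of at least 10 CPM, 61 higher and 67 lower with the 4 libraries alone, and 118 differences with miRNAs left out. They were 61 higher, 73 lower and 6 differences with similar copies and overlaps left out, and 51 higher and 39 lower with miRNAs alone. Several of these fits held other intervals or libraries than the main fit, and why the counts moved was not tested. Without the 45S interval, the shares in GMP and Myeloid were 96.6% and 94.6% for C/D snoRNAs, 0.509% and 0.527% for snRNAs, 0.0330% and 0.0199% for mitochondrial tRNAs, and 0.0415% and 0.0296% for mitochondrial rRNAs. In Myeloid they were 1.14% for H/ACA snoRNAs and 3.36% for miRNAs. Among 172 named intervals over 17 settings, 2379 of 2654 values kept direction and side of the threshold, 201 lost the call, 66 gained it and 8 reversed. With miRNAs left out, Snord49a was at -0.14, Snord2 at -0.14 and Gm23969 at -0.13. With miRNAs alone, Mir98 was at 0.48, Mir19a at 0.53, Mir181b-2 at 0.82, Mir181b-1 at 1.03 and Mir126a at 0.98. The cause was not tested. With the replicate number as a block the counts were 119, 107 and 67. Another fit had a term shared by library 1 of GMP, of MEP and of Erythroid. In that fit 114 intervals were higher and 90 lower in GMP. It had 47 falls among the 201 tested miRNAs and 9 in the myeloid maturation list. Whether same-numbered libraries share a mouse or a batch is not labelled. The deviations of same-numbered GMP and Myeloid libraries correlated at 0.0461. Over all 28 pairs of populations the correlations ran from -0.640 to 0.489, and 8 were above 0.1. Such correlations cannot decide whether the samples were paired. Depth limits intervals with few counts. The filter, with a minimum count of 10, ran over all 16 libraries. Some intervals with no count in GMP were therefore tested, such as Gm25162 at a mean of 0.130 CPM in Myeloid.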
